A study of Saccharomyces cerevisiae with 117 samples.

Results

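The genes described here are 10 enzymes that make or break down the aromatic amino acids of budding yeast: ARO1, ARO2, ARO3, ARO4, ARO7, ARO8, ARO9, ARO10, TRP4 and TRP5. They were taken by their systematic names from the 6420 gene rows of each cell's table. No cut-off on a measured value was used, but the list was chosen with earlier results of these data known. The study picked single spheroplasts (cells whose wall had been digested with Zymolyase) of the strain S288C and sequenced the full-length mRNA of each. Amino acid starvation (AAS) cells had been moved to a synthetic medium with glucose and sorbitol but no amino acids, hypotonic cells to that medium with amino acids and without sorbitol, and glucose starvation (GS) cells to it without glucose. Isotonic cells, the comparison, had the complete medium with sorbitol. AAS and hypotonic cells were sequenced in batch 1 with isotonic cells of their own, and GS cells in batch 2 with other isotonic cells. All cells had grown in rich medium to log phase first, and all had lost their walls. The values below are from the 84 of 117 cells that the study kept after quality control, which are 18 AAS, 12 hypotonic, 16 isotonic (batch 1), 21 GS and 17 isotonic (batch 2) cells. The labels name no separate cultures, so the cells of a group count as 1 sample. Differences between groups therefore carry no test, and the SD over cells is given as a description. The study gives the exposure to the treatments only as a range of times, and the exposure time of each single cell was not given in the sources used here.

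Yeast makes phenylalanine, tyrosine and tryptophan from phosphoenolpyruvate and erythrose 4-phosphate through the shikimate pathway, which ends in chorismate, the common branch point. The paralogous DAHP synthases Aro3 and Aro4 open the pathway and are inhibited by phenylalanine and by tyrosine, each by its own amino acid. Aro1 and Aro2 carry the chain on to chorismate. Aro7 leads to phenylalanine and tyrosine, while Trp4 and Trp5 act in the tryptophan branch. In the opposite direction, the Ehrlich pathway removes the amino group (Aro8, Aro9) and then decarboxylates the keto acid (Aro10), which yields fusel alcohols such as phenylethanol. Gcn4 is the activator of many amino acid synthesis genes when amino acids are short, and Aro80 activates ARO9 and ARO10 when aromatic amino acids are present.

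The upstream sequences of 4 members are shown because they hold the letters by which those 2 activators are known. The sequences are on the R64 reference (RefSeq), in lower case with matches in capitals, and positions are counted back from the start codon. The first pair shows the Aro80-type motif, a pair of CCG triplets on the same strand with 7 bases between them. In ARO9 (chrVIII:375469-375588, plus strand, 240 to 121 bases upstream) there were 5 matches, some overlapping or on the other strand, and in ARO10 (chrIV:1233868-1233987, plus strand, 350 to 231 bases upstream) there were 4.
ARO9: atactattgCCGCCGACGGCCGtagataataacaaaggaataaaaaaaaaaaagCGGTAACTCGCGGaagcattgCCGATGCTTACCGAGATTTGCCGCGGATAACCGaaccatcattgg
ARO10: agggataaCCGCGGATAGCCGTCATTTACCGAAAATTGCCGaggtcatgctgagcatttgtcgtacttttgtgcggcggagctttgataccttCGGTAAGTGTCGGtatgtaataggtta
The other pair shows the Gcn4-type motif TGACTCA, with 1 match each, in ARO4 (chrII:718275-718324, minus strand, 330 to 281 bases upstream) and in ARO1 (chrIV:704244-704293, plus strand, 240 to 191 bases upstream).
ARO4: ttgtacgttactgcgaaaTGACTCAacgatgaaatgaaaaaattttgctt
ARO1: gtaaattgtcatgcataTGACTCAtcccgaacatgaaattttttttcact
Both motifs were searched on both strands within 500 bases upstream of 6006 genes. The spaced CCG triplets were found upstream of 5.33% of them and TGACTCA upstream of 4.01%, and each occurred upstream of 2 of the 10 members. GATAAG, the motif of the GATA factors that act in nitrogen control, was found upstream of 22.8% of genes and of 3 members (ARO2, TRP4 and ARO8). A match of letters is a description and not a measured binding site.

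Reads per cell on genes ranged from 3112955 to 8502504 in AAS, from 4297691 to 7870247 in hypotonic, and from 3603505 to 55179414 in isotonic cells of batch 1. In batch 2 they ranged from 705807 to 2535593 in GS and from 14245 to 1133518 in isotonic cells. The median cell read 5117.5 genes in AAS, 3255 in hypotonic and 4149.5 in isotonic cells of batch 1, and 1332 in GS and 1047 in isotonic cells of batch 2, so a reading of 0 says less in batch 2. The median share of reads from added spike-in RNA was 5.12% in AAS, 0.039% in hypotonic and 0.0% in isotonic cells of batch 1. In batch 2 it was 40.5% in GS and 77.2% in isotonic cells. All hypotonic cells have names that end in X, but only some AAS and isotonic cells of batch 1 do. The part of these differences between libraries was not tested. Among the mating-type genes, those of an alpha strain were read, with MFALPHA1 (alpha-factor) at means from 530.1 to 2149 CPM in the 5 groups. MFALPHA2 was lower, at means from 38.04 to 54.98 CPM. STE3 had means of 577.1 CPM in AAS, 513.8 in hypotonic and 282.6 in isotonic cells of batch 1. In batch 2 STE3 had 127.9 CPM in isotonic cells but only 1.10 CPM in GS cells, a log2 fold change of -5.94. Of the 4 genes of a cells (MFA1, MFA2, STE2 and BAR1), the highest group mean was 17.7 CPM, for STE2 in AAS cells, and all of them were at 0 in batch 2. CPM are the reads of a gene scaled to a total of 1000000 reads on genes in that cell. A fold change below is the log2 ratio of the mean CPM plus 1 of the treated cells over that of the isotonic cells, and "at least 2-fold" is a rule of size. A gene was compared if at least 20% of the cells of the pair of groups had a read of it.

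In the isotonic cells of batch 1, 9.5 of the 10 members had a read in the median cell (range 6 to 10), and their summed level was 8300 ± 2971 CPM (SD over 16 cells). Per kilobase of coding sequence, the mean level was highest for TRP5 (1267 CPM per kb) and ARO4 (1143), followed by ARO8 (865.2), ARO3 (648.7) and ARO2 (430.7). TRP4 (247.3), ARO10 (222.8), ARO9 (189.6), ARO1 (161.5) and ARO7 (73.9) were lower. The coefficient of variation over these cells was 0.60 for ARO4 and 0.65 for TRP5, and 1.46 for ARO10, so neighbours in this order do not differ beyond the spread over cells. The isotonic cells of batch 1 carry names that begin with A (9 cells) or with E or G (7 cells), and the meaning of the letters was not given in the sources used here. ARO9 had a read in 9 of 9 cells named A, from 38.2 to 877.3 CPM with a median of 639.7, and in 2 of 7 cells named E or G, where the highest was 38.9 CPM. ARO10 had medians of 562.5 CPM in cells named A and 0.37 CPM in cells named E or G, with the cell G57 of the second set at 476.0 CPM. The median cell read 5082 genes among those named A and 2786 among those named E or G. Results on ARO9 and ARO10 are therefore given against each set as well, and the part of detection in them was not tested.

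Under AAS, 8 of the 10 members were at least 2-fold lower than in isotonic cells and none was at least 2-fold higher, with ARO4 and ARO10 the furthest down. Counted on either side, it was 3 members with mean log2(CPM + 1), with ARO4 and TRP5 lower and ARO7 higher (1.34). The count was 5 with medians and between 6 and 8 with each cell left out in turn, all of them lower. Among all 5825 genes compared, 56.9% passed the 2-fold rule, 13.8% on the lower and 43.2% on the higher side. Of these 5825 genes, 402 were at least 2-fold lower and 4170 higher with mean log2(CPM + 1), and 462 and 4018 with medians. The median log2 fold change was -1.27 over the members, beside 0.74 over all genes. With mean log2(CPM + 1) these medians were -0.24 and 1.97. The summed level of the 10 members was 2722 ± 1034 CPM in AAS, against 8300 ± 2971 CPM in isotonic cells (SD, n = 18 and 16 cells). The lowest AAS cell had 1425 CPM and the highest 6071 CPM, against 3170 CPM in the lowest isotonic cell. The median of all genes depended on the scaling: with TMM factors on summed reads the median of all genes was 0.09 and that of the members -2.03, and with DESeq2 size factors the 2 medians were 0.01 and -2.12. The share of higher calls among all called genes was 75.8% with CPM, 52.0% with TMM and 49.3% with DESeq2 size factors. The median of the members lay below that of all genes in each of these scalings.

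**Figure D1:**
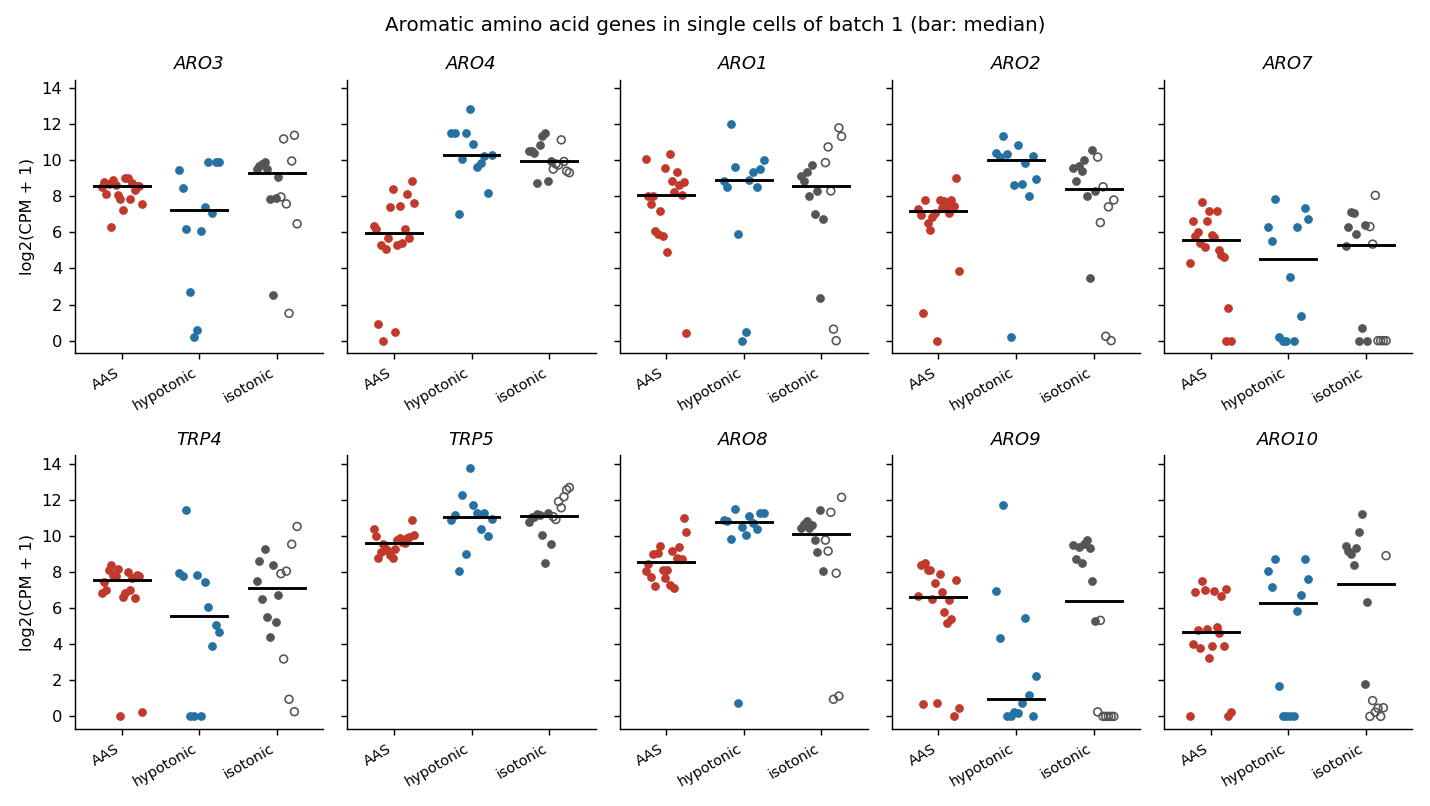
Level of each of the 10 genes in single cells of batch 1, as log2(CPM + 1), in AAS (18 cells, red), hypotonic (12 cells, blue) and isotonic cells (16 cells, grey), where open circles are isotonic cells named E or G and the bar is the median. For ARO4, 17 of 18 AAS cells lie below the lowest isotonic cell, and for ARO9 all filled isotonic circles have reads while most open ones are at or near 0.

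ARO4 (YBR249C, chrII:716882-717994, minus strand), the DAHP synthase that tyrosine inhibits, was the clearest of these. It ranged from 0 to 461.2 CPM in AAS cells with a median of 61.3, and from 421.7 to 2932 CPM in isotonic cells with a median of 979.9. In 17 of 18 AAS cells ARO4 was below the lowest isotonic cell, the exception being the AAS cell D94X, so the groups overlapped in that cell alone. Its mean was 115.9 ± 129.2 CPM in AAS, against 1272 ± 762.3 CPM in isotonic cells (SD over cells), 10.9-fold lower. The log2 fold change of -3.45 ranked 99 from the lowest of 5825 genes. It was at least 2-fold lower in all 16 alternative settings, from -4.51 to -2.61. Reads of ARO4 were found in 17 of 18 AAS cells (94.4%, exact 95% interval 72.7 to 99.9%), so most AAS cells read the gene at a low level.

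ARO3 (YDR035W, chrIV:521816-522928, plus strand), the DAHP synthase that phenylalanine inhibits, overlapped widely. It ranged from 76.6 to 507.02 CPM in AAS cells with a median of 371.5, and from 1.9 to 2651 CPM in isotonic cells with a median of 623.6. The log2 fold change was -1.11, with -0.82 without the isotonic cell G56, and it was 0.03 when log2 values were averaged instead of CPM. The spread of ARO3 over cells was narrow in AAS, with an SD of 0.70 on the log2(CPM + 1) scale in AAS cells and 2.76 in isotonic cells. For ARO4 the order was the other way round, with 2.62 in AAS and 0.85 in isotonic cells.

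The trunk enzymes were lower by mean as well, with wide overlap. ARO1 (YDR127W, chrIV:704484-709250, plus strand), whose protein carries out 5 successive steps, had a median of 262.9 CPM in AAS (0.4 to 1267) and of 381.8 CPM in isotonic cells (0 to 3523). Its log2 fold change of -1.05 was just past the rule of size, it was -0.66 without the isotonic cell G56, and against the isotonic cells named A alone it was 0.01. ARO2 (YGL148W, chrVII:226399-227529, plus strand), chorismate synthase, had a median of 146.3 CPM in AAS (0 to 521.6) and of 340.4 CPM in isotonic cells (0 to 1496). The log2 fold change of ARO2 was -1.67, at least 2-fold lower in 14 of 16 alternatives. The ranges of both genes overlapped.

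Beyond chorismate, TRP5 was the member with the next clearest difference. TRP5 (YGL026C, chrVII:446412-448535, minus strand), tryptophan synthase, ranged from 440.9 to 1880 CPM in AAS cells with a median of 776.9, and from 355.4 to 6529 CPM in isotonic cells with a median of 2219. Its mean was 834.6 ± 357.0 CPM in AAS, against 2692 ± 1737 CPM in isotonic cells, with a log2 fold change of -1.69. TRP5 was at least 2-fold lower in all 16 alternatives, from -2.25 to -1.01. The ends of this range were the values against isotonic cells named E or G (mean 3988 CPM) and A (mean 1684 CPM). Against the cells named A it was thus only just past the rule of size. Of all pairs of an AAS and an isotonic cell, the AAS cell was the higher in 11.5% for TRP5 and in 0.69% for ARO4. TRP4 (YDR354W, chrIV:1184747-1185889, plus strand), which attaches phosphoribose to anthranilate, had medians of 187.1 CPM in AAS, against 141.4 CPM in isotonic cells and a log2 fold change of -0.72. ARO7 (YPR060C, chrXVI:674861-675631, minus strand), chorismate mutase, had a median of 47.5 CPM in AAS, against 38.2 CPM in isotonic cells, and a log2 fold change of 0.10. These were the 2 members short of a 2-fold difference by mean CPM, and ARO7 was at 1.34 when log2 values were averaged instead.

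The 3 breakdown genes were all at least 2-fold lower by mean, but their cells differed in pattern. ARO8 (YGL202W, chrVII:116059-117561, plus strand), the aromatic aminotransferase that serves synthesis as well as breakdown, had a median of 380.6 CPM in AAS (138.2 to 1992) and of 1121 CPM in isotonic cells (0.9 to 4477), a log2 fold change of -1.38. The AAS cells whose names end in X had 986.5 ± 626.4 CPM of ARO8 (5 cells), and the other AAS cells 311.3 ± 151.1 CPM (13 cells). With only the cells whose names end in X as AAS cells, the log2 fold change of ARO8 was -0.40. ARO8 was at least 2-fold lower in 14 of 16 alternatives. ARO10 (YDR380W, chrIV:1234218-1236125, plus strand), the keto acid decarboxylase, ranged from 0 to 178.1 CPM in AAS cells with a median of 24.95, and from 0 to 2351 CPM in isotonic cells with a median of 204.01. Its log2 fold change was -2.98 against all isotonic cells, -3.71 against those named A and -0.36 against those named E or G.

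ARO9 (YHR137W, chrVIII:375709-377250, plus strand), the inducible aminotransferase, depended on which isotonic cells it was set against. It ranged from 0 to 360.2 CPM in AAS cells with a median of 95.7, and from 0 to 877.3 CPM in isotonic cells with a median of 108.5. The log2 fold change was -1.15 against all isotonic cells, -0.95 without the isotonic cell A29, -1.97 against the 9 cells named A and 4.33 against the 7 named E or G. The AAS median lay between the medians of these sets, 639.7 CPM in cells named A and 0 CPM in those named E or G. Single AAS cells fell within the range of either set. Of 18 AAS cells, 17 had a read of ARO9, and some of them had only 2 or 3 reads.

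Under hypotonic conditions few members passed the 2-fold rule by mean, and which ones did depended on the measure. Of the 10 members, ARO2 was at least 2-fold higher and ARO10 at least 2-fold lower, which made 2 of 10 beside 51.3% of the 5600 genes compared (21.2% higher and 30.1% lower). The count was 4 with mean log2(CPM + 1), 5 with medians, and between 1 and 3 with each cell left out in turn. Of the 5600 genes, 1172 were at least 2-fold lower and 854 higher with mean log2(CPM + 1), and 1299 and 1267 with medians. The median log2 fold change was 0.11 over the members and -0.26 over all genes. ARO2 had a median of 1028 CPM in hypotonic cells (0.2 to 2596) and of 340.4 CPM in isotonic cells (0 to 1496), with a log2 fold change of 1.02 that was at least 2-fold in 10 of 15 alternatives and 0.79 without the cell F20X. ARO10 had a median of 80.6 CPM in hypotonic cells (0 to 426.3) and of 204.01 CPM in isotonic cells, with a log2 fold change of -1.66. With cells A as the only isotonic cells it was -2.38, and with cells E and G 0.97. The ranges overlapped for both genes, as they did for the other 8 members.

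The hypotonic values of several members rested on single cells. The cell F20X was the highest hypotonic cell for ARO1, ARO2, ARO7, TRP4 and ARO9, and F23X the highest for ARO4 and TRP5. For ARO9 the mean was 297.8 ± 971.6 CPM in hypotonic cells, of which F20X alone had 3381 CPM, and the median was 1.0 CPM, against 108.5 CPM in isotonic cells. The log2 fold change of ARO9 was thus 0.03 by mean and -5.79 by median. It was -0.79 against cells named A and 5.51 against cells E and G, and no direction is given for it. ARO4 had medians of 1221 CPM in hypotonic cells (129.9 to 7202) and 979.9 CPM in isotonic cells, with a log2 fold change of 0.62. Of the 12 hypotonic cells, 2 were below the lowest isotonic cell for ARO4. ARO3 had medians of 150.3 CPM in hypotonic, against 623.6 CPM in isotonic cells, and a log2 fold change of -0.98, short of the rule but below 0 in 15 of 15 alternatives. TRP4 had medians of 49.4 CPM in hypotonic cells, against 141.4 CPM in isotonic cells, with a log2 fold change of 0.15 by mean.

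The GS cells of batch 2 read few of these genes, with a median of 4 of the 10 members per cell (0 to 7), against 6 (1 to 8) in the isotonic cells of that batch. ARO7 and ARO10 did not pass the filter. Of the 8 members that passed, 6 were at least 2-fold lower and none was higher by that much, beside 70.3% of the 2106 genes compared (26.2% lower and 44.1% higher). The median log2 fold change was -2.93 over these 8 and 0.64 over all genes. The summed level of the 10 members was 1764 ± 2424 CPM in GS cells (median 762.2) and 17213 ± 27159 CPM in isotonic cells (median 8918). The depths of both groups are given above, and their part in these readings was not tested.

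ARO4 had a median of 1.3 CPM in GS cells (0 to 1684) and of 864.7 CPM in isotonic cells (0 to 9297), with reads in 14 of 21 and 16 of 17 cells, and a log2 fold change of -2.90. ARO8 had a median of 0 CPM in GS cells (0 to 1298) and of 274.5 CPM in isotonic cells (0 to 3651), with a log2 fold change of -2.97, or -4.09 without the GS cell Y517. With the cells that quality control left out added to both groups, ARO8 turned to 0.52, and 5 of the 6 GS cells added had reads of it, up to 10797 CPM. ARO2 had a median of 0 CPM in GS (0 to 5851) and of 48.6 CPM in isotonic cells (0 to 11769), with a log2 fold change of -2.20. Leaving out the isotonic cell Y705 gave -1.40 for ARO2, and leaving out the GS cell Y513 gave -4.87.

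**Figure D2:**
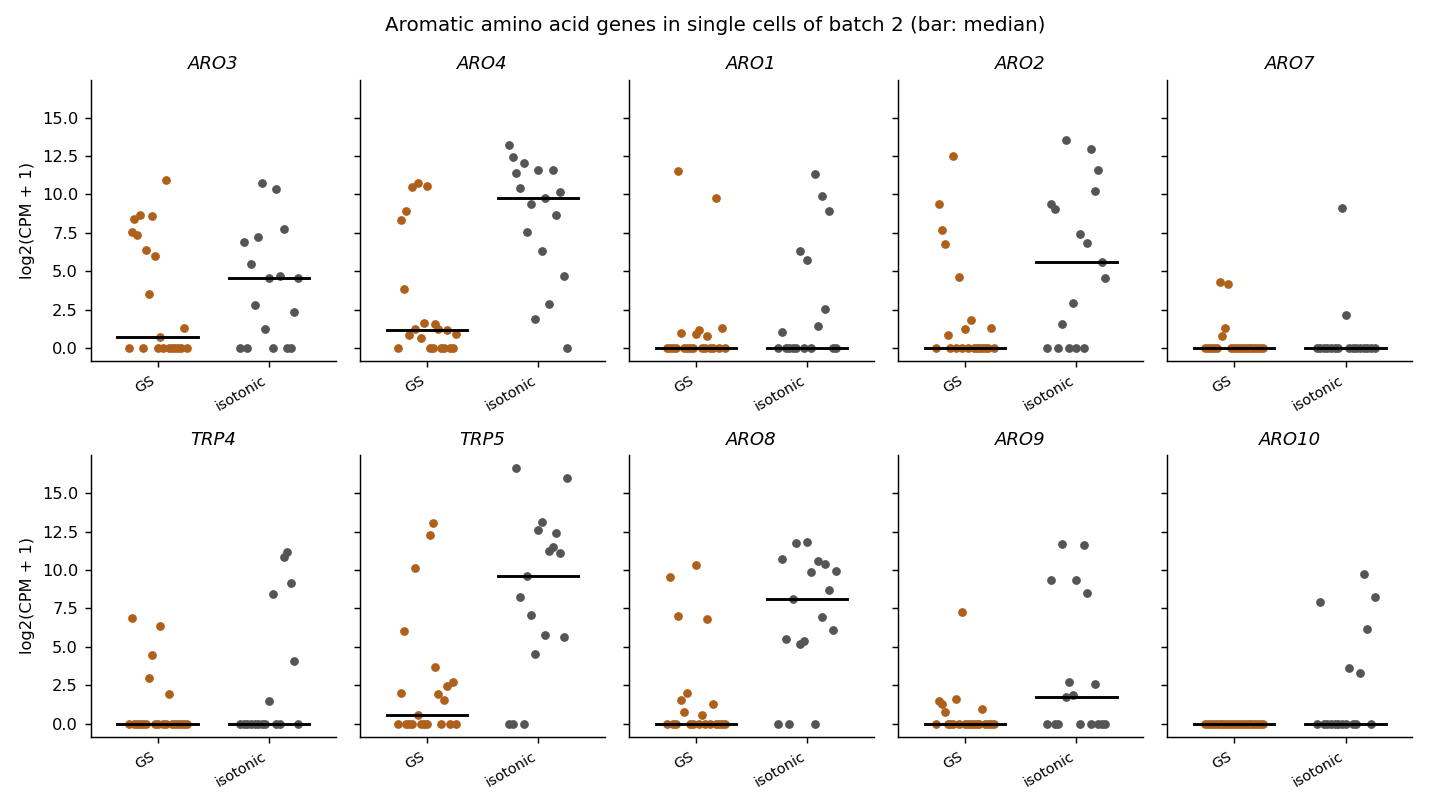
Level of each of the 10 genes in single cells of batch 2, as log2(CPM + 1), in GS (21 cells) and isotonic cells (17 cells), with the median as a bar. Many cells are at 0 in both groups, ARO10 is at 0 in all GS cells, and the isotonic median is above the GS median most clearly for ARO4, TRP5 and ARO8.

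The members TRP5 and TRP4 were also lower by mean under GS. Of the other tryptophan genes compared there, TRP2 was lower and TRP1 higher, as given below. TRP5 had a median of 0.5 CPM in GS cells (0 to 8595) and of 784.9 CPM in isotonic cells (0 to 101256). Its log2 fold change of -4.04 was -3.09 without the isotonic cell Y702 and -5.24 without the GS cell Y521, and TRP5 was at least 2-fold lower in all 12 alternatives, from -9.03 to -1.29. TRP4 had reads in 5 of 21 GS and 6 of 17 isotonic cells and a median of 0 CPM in both groups, so medians showed no difference. By mean the log2 fold change of TRP4 was -4.67, which was -3.87 without the isotonic cell Y717 and -5.52 without the GS cell Y508. ARO9 had reads in 6 of 21 GS cells, the highest at 155.6 CPM, and in 9 of 17 isotonic cells, the highest at 3265 CPM, a log2 fold change of -5.77 that was at least 2-fold in all 12 alternatives and -5.11 without the isotonic cell Y704 or -8.47 without the GS cell Y516.

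ARO10 was not read in any of the 21 GS cells, which allows a level of at most 0.086 CPM over their summed reads (3 reads), while 6 of 17 isotonic cells held 594 reads of it. This is an at least 924-fold lower level in summed reads. The isotonic cell Y717 held 347 of the reads, and without it the bound was 406-fold, and both bounds cover counting error only. ARO7 had reads in 4 of 21 GS and 2 of 17 isotonic cells, which is too few for a comparison. ARO3 and ARO1 were within the 2-fold rule, at -0.32 and -0.45. ARO3 was read in 11 of 21 GS and 12 of 17 isotonic cells, and ARO1 in 7 of 21 GS and 8 of 17 isotonic cells.

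**Figure D3:**
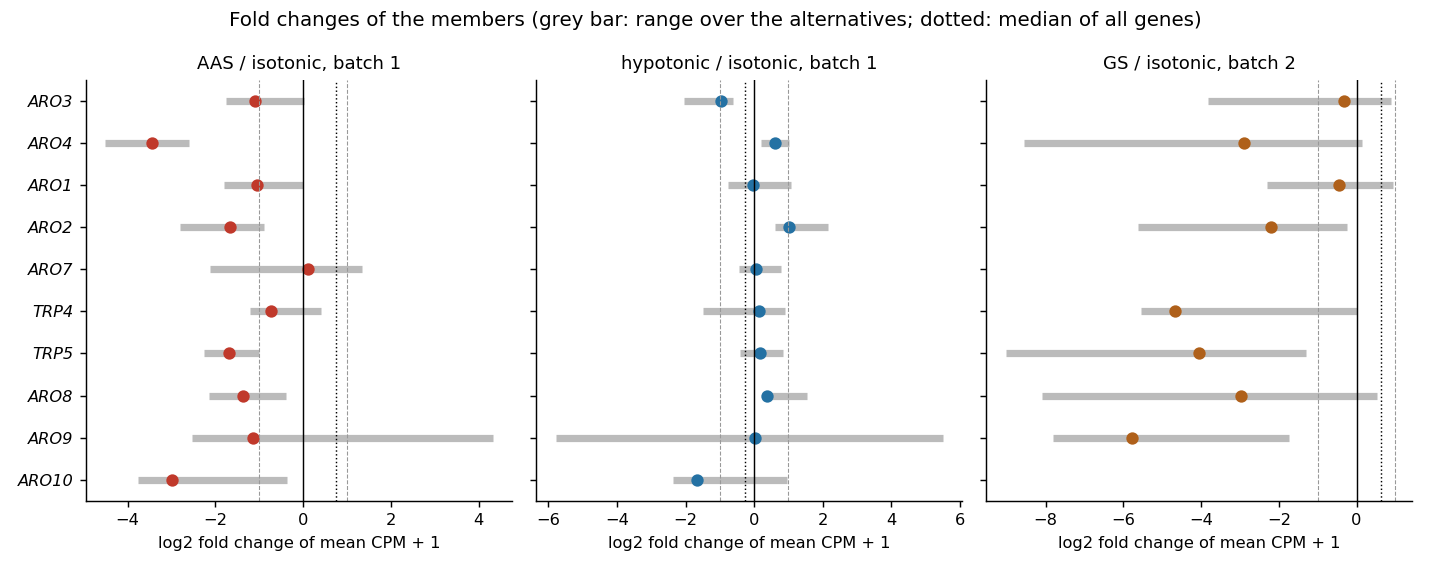
Log2 fold change of the 10 genes in AAS and hypotonic cells (batch 1) and in GS cells (batch 2), each over isotonic cells of its batch. Points are the values given in the text, grey bars their lowest and highest value over the alternative settings, dashed lines the 2-fold rule and the dotted line the median of all genes, and ARO7 and ARO10 did not pass the filter in GS. ARO4 and TRP5 lie left of the 2-fold line in AAS with their whole bars, and the bar of ARO9 crosses 0 in AAS and hypotonic cells.

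The paralogs ARO3 and ARO4 could be compared within each cell, a comparison chosen after the values had been seen. On the log2(CPM + 1) scale, ARO4 minus ARO3 was -2.68 ± 2.32 in AAS (SD, 18 cells), 3.80 ± 4.41 in hypotonic (12 cells) and 1.85 ± 3.25 in isotonic cells (16 cells). ARO4 was above ARO3 in 3 of 18 AAS cells, in 10 of 12 hypotonic cells and in 12 of 16 isotonic cells. Among AAS cells the difference was -1.14 ± 1.63 in those whose names end in X, 2 of 5 above 0. In the other AAS cells it was -3.28 ± 2.31, 1 of 13 above 0. The isotonic cells named A (1.88 ± 2.92) and those named E or G (1.82 ± 3.87) were alike in the mean of this measure. Both genes have a coding length of 1113 bp, so length does not enter the difference. In batch 2 it was -0.34 ± 5.27 in GS (21 cells) and 4.42 ± 5.15 in isotonic cells (17 cells), with ARO4 above ARO3 in 8 of 21 and 13 of 17 cells.

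ARO80 (YDR421W, chrIV:1312040-1314892, plus strand), which encodes the activator of ARO9 and ARO10, was higher in AAS, and its targets lower by mean. Its median was 164.6 CPM in AAS cells (0 to 364.4), 21.8 CPM in hypotonic cells (0 to 712.2) and 0.15 CPM in isotonic cells (0 to 141.7), and 9 of 18 AAS cells were above the highest isotonic cell. The log2 fold change of ARO80 was 2.85 in AAS, from 1.90 to 7.18 over 16 alternatives, and 2.29 in hypotonic cells, from 1.55 to 5.21 over 15. The mean of ARO9 and ARO10 minus ARO80 within a cell was -1.45 ± 1.99 in AAS, 0.07 ± 4.96 in hypotonic and 3.26 ± 3.50 in isotonic cells of batch 1, again a comparison chosen after the values had been seen. It was above 0 in 3 of 18 AAS cells and in 13 of 16 isotonic cells. Among the isotonic cells it was 5.42 ± 2.39 in those named A, all 9 above 0, and 0.49 ± 2.65 in those named E or G, 4 of 7 above 0.

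**Figure D4:**
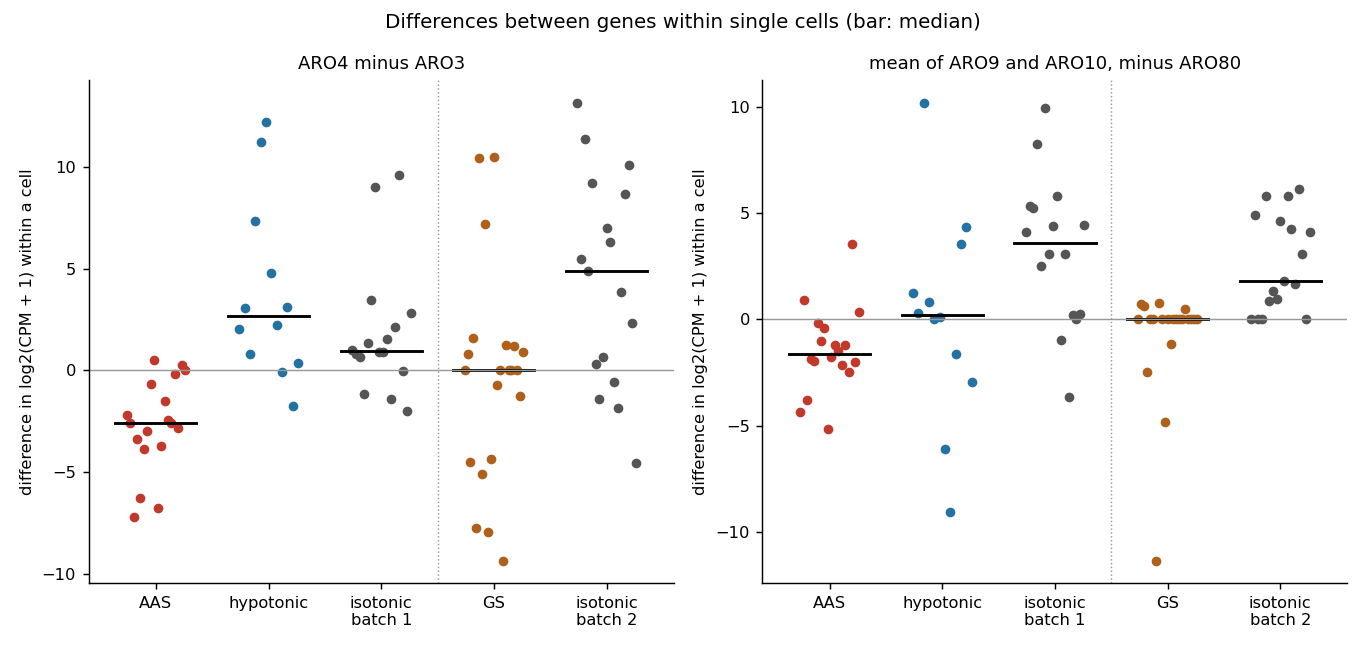
Differences between genes within single cells on the log2(CPM + 1) scale, for ARO4 minus ARO3 (left) and the mean of ARO9 and ARO10 minus ARO80 (right), with 1 point per cell and the median as a bar. Most AAS cells lie below 0 in both panels and most isotonic cells of batch 1 above it.

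ARO9 and ARO10 were also set against the 7 synthesis genes within each cell. Their mean minus that of the synthesis genes was -1.98 ± 1.56 in AAS, -3.95 ± 2.23 in hypotonic and -2.51 ± 3.94 in isotonic cells of batch 1, and -1.68 ± 1.70 in GS and -1.79 ± 3.09 in isotonic cells of batch 2. The pooled isotonic value hid a split of 0.35 ± 2.12 in cells named A and -6.19 ± 2.17 in cells named E or G. Over the isotonic cells named A, the levels of ARO9 and ARO10 had a Spearman rho of 0.77 (9 cells), over those named E or G of 0.02 (7 cells), and over AAS cells of -0.05 (18 cells). These are descriptions over few cells, whose depths differ widely. Over the 45 pairs of members the median rho was 0.16 in AAS, 0.26 in hypotonic and 0.08 in isotonic cells of batch 1, so the members had little rank order in common from cell to cell.

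Of the other enzymes that use chorismate, 7 of 7 were compared under AAS, and their median log2 fold change was 0.29, beside 0.74 over all genes. On each side 2 were past the rule, while among all 5825 genes compared 43.2% were higher and 13.8% lower. TRP2 and TRP3, which form the anthranilate synthase that opens the tryptophan branch, had -1.34 and -1.57, and TRP3 was at 0.09 without the isotonic cell E11X. ABZ1, of the folate precursor branch, had 1.81 and kept a 2-fold difference in 16 of 16 alternatives, and TRP1 had 1.03, or 0.89 without the AAS cell D22. PHA2 and TYR1, the branch enzymes to phenylalanine and tyrosine, were within the 2-fold rule at 0.92 and -0.39, and ABZ2, which follows ABZ1, at 0.29. In hypotonic cells PHA2 had 2.10, but -1.22 without the cell F21X, and TRP3 had -2.13, but -0.46 without the isotonic cell E11X. In GS cells 3 of the 7 genes were compared. TRP1 had 4.597 there, with reads in 6 of 21 GS and 2 of 17 isotonic cells and 2.99 without the GS cell Y522. TRP2 had -1.69, but -0.79 without the isotonic cell Y720, and ABZ1 had -4.12, with -3.02 without the isotonic cell Y707.

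Of the 8 other breakdown genes, 3 were at least 2-fold higher under AAS (ARO80, PDC6 and ATF1) and 2 lower (PDC1 and ADH5). Among all genes compared under AAS, 43.2% were higher and 13.8% lower by that rule. On either side the rule was passed by 56.9% of all genes compared in AAS, 51.3% in hypotonic and 70.3% in GS cells. PDC6, a minor pyruvate decarboxylase, had a median of 446.7 CPM in AAS cells and 0 CPM in isotonic cells, with a log2 fold change of 5.95, with 11 of 18 AAS cells above the highest isotonic cell. PDC1, the main pyruvate decarboxylase, went the other way, with means of 4613 ± 1839 CPM in AAS, against 23947 ± 9732 CPM in isotonic cells and a log2 fold change of -2.38. PDC1, PDC5 and PDC6 are close paralogs, so reads from stretches they share make their values uncertain. ATF1, which turns fusel alcohols into acetate esters, had 3.03, and ADH5, an alcohol dehydrogenase, had -1.43, or -0.98 without the isotonic cell G56. PDC5, SFA1 and PDR12 were within the rule, at 0.78, -0.52 and -0.96. In hypotonic cells ARO80, PDC6 and ATF1 had 2.29, 3.07 and 1.51, and PDC1 and PDR12, an exporter of organic acids, had -1.08 and -4.40. Of these, ARO80 was at 1.28 without the hypotonic cell F30X, ATF1 at 0.96 without F40X, PDC1 at -0.97 without F22X and PDR12 at -0.45 without the isotonic cell G55. AAS and hypotonic cells were set against the same isotonic cells. In GS cells 5 of the 8 were compared, with PDC6 at 7.97 and PDC1, SFA1 and ADH5 at -1.37, -3.24 and -1.34, where ADH5 was at 0.01 without the isotonic cell Y716 and PDC6 at 5.88 without the GS cell Y521.

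**Figure D5:**
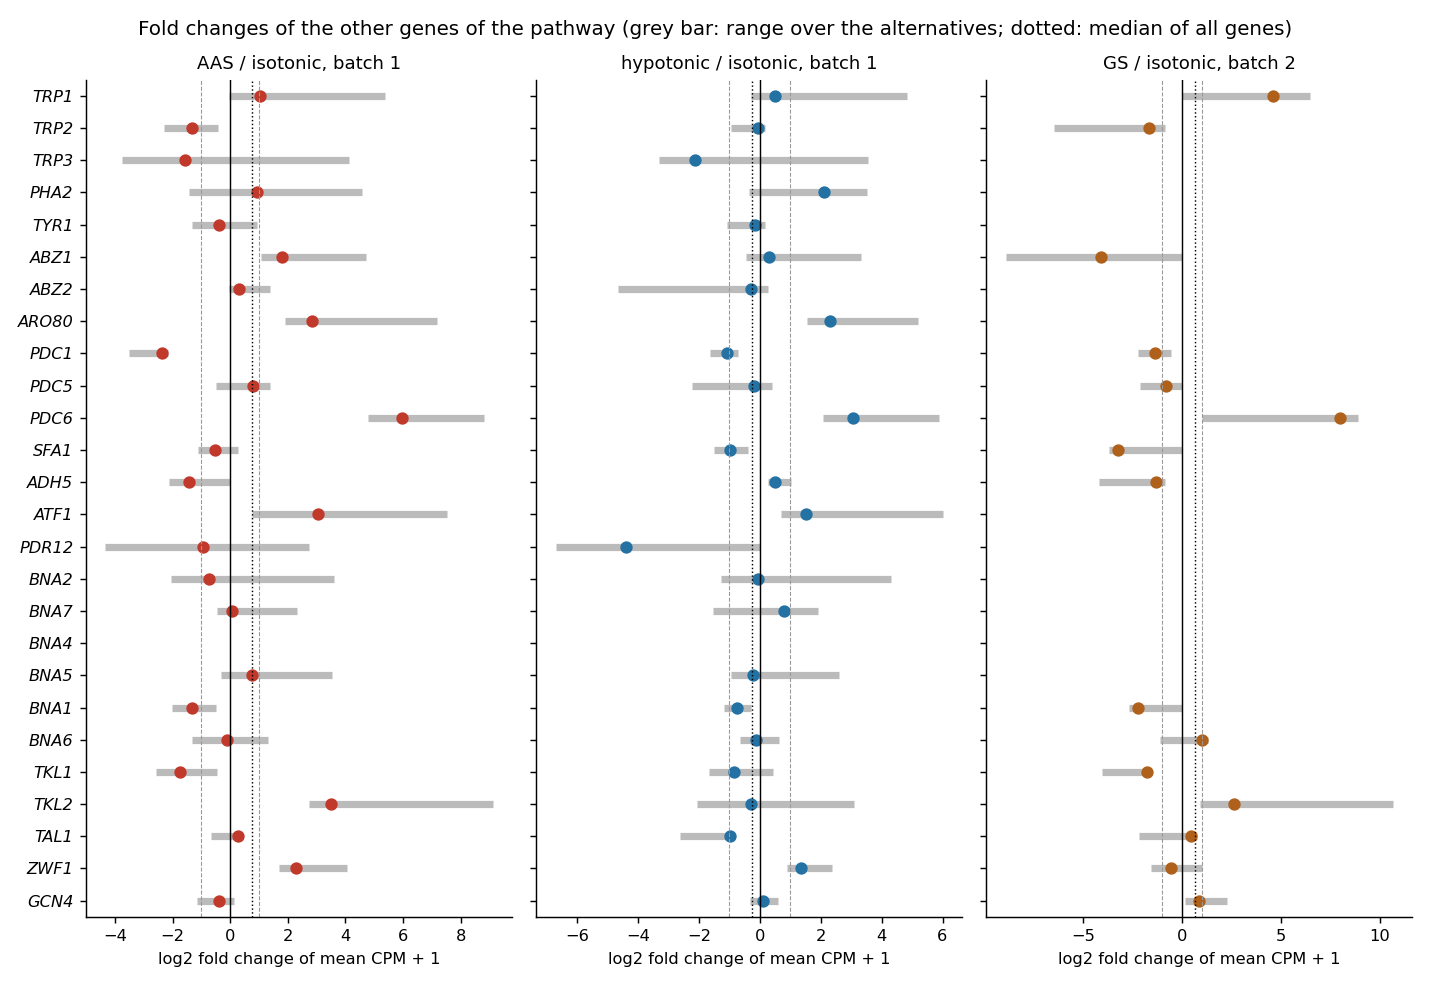
Log2 fold change of the other genes of the pathway in AAS, hypotonic and GS cells over isotonic cells of the same batch, from chorismate enzymes at the top through breakdown genes, the route from tryptophan to NAD and the supply of erythrose 4-phosphate to GCN4. Points, bars and lines are as in the plot of the 10 members, and genes without a point did not pass the filter. ABZ1, ARO80, PDC6, TKL2 and ZWF1 lie right of the 2-fold line in AAS with their whole bars.

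The genes that supply erythrose 4-phosphate were split between paralogs. TKL2, the minor transketolase, had a median of 846.1 CPM in AAS, against 0.52 CPM in isotonic cells, with 12 of 18 AAS cells above the highest isotonic cell and a log2 fold change of 3.51. TKL1, the major transketolase, had medians of 636.5 CPM in AAS, against 1512 CPM in isotonic cells and a log2 fold change of -1.75. In GS cells the split was the same, with 2.60 for TKL2 and -1.80 for TKL1, or -1.12 without the isotonic cell Y704. ZWF1, glucose-6-phosphate dehydrogenase, had a mean of 3354 ± 1123 CPM in AAS, against 687.4 ± 656.2 CPM in isotonic cells, with 16 of 18 AAS cells above the highest isotonic cell. Its log2 fold change was 2.29 in AAS and 1.36 in hypotonic cells, and the hypotonic value was 0.70 without the cell F22X. TAL1, transaldolase, had 0.26 in AAS. On the route from tryptophan to NAD, 5 of 6 genes were compared under AAS. Of them 1, BNA1, was at least 2-fold lower (-1.33), beside 13.8% of all genes compared. BNA2, BNA5, BNA6 and BNA7 had -0.74, 0.75, -0.10 and 0.06. In GS cells BNA1 had -2.26, or -1.16 without the isotonic cell Y705, and BNA6 had 1.01, or -0.26 without the GS cell Y521. GCN4 mRNA was within the 2-fold rule in all 3 comparisons, at -0.39 in AAS, 0.10 in hypotonic and 0.84 in GS cells. GCN4 is controlled mainly in translation, which mRNA counts do not show.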

How the data were processed

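Single cells were picked by hand, and poly(A) mRNA was reverse transcribed, amplified and sequenced without molecular identifiers, so reads are not independent molecules and intervals cover counting error only. The authors aligned reads with STAR 2.5.2 to the R64 reference and deposited raw read counts per gene and cell made with HTSeq. TPM values (RSEM 1.2.31) were not used here. Spike-in rows and the summary rows of the counter were left out, and CPM was computed over 6420 gene rows (Python 3.11.15, pandas 2.3.3).

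Of 117 cells, the 84 that the study kept were used, and the GS cells named Y2, of which the study kept none, are given apart. With no cultures named, a group is 1 sample and no count model was tested. Fold changes are log2 ratios of mean CPM with a pseudocount of 1 CPM, for genes read in 20% or more of the cells of the pair, and the rule of size is 2-fold. Shares have exact Clopper-Pearson 95% intervals. A level of 0 is given with the limit that 3 reads allow.

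Alternatives were pseudocounts of 0.1 and 10 CPM, summed reads with and without TMM (edgeR 4.0.16) and DESeq2 1.42.0 size factors, mean log2 values, medians, leaving out the highest cell, a covariate for how many genes a cell had detected, no filter, thinning to 100000 reads, all cells, and sets of cells by name. A setting with all cells of batch 1 but the isotonic cell G36 was added after seeing the data, as was leaving out each cell in turn. The fold measure was tested on simulated data. The members and gene lists were chosen with earlier results of these data known. The text names all 10 members, and of the other lists the genes that passed the filter. None of the 10 members overlaps another coding gene. Columns of the authors' own comparisons were not used. Upstream windows were read from the R64 genome.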

Additional observations from a re-analysis of the deposited data

Results flagged for a closer look

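The GS cells named Y2 (20 cells) enter no comparison above, and 2 members had a higher mean there than in the isotonic cells of batch 2. ARO3 had a mean of 371.5 CPM in GS cells named Y2 and 212.8 CPM in isotonic cells, but only 6 of 20 of those GS cells had a read of it, and the highest, Y201, had 6 reads among 1045. ARO4 had a mean of 2073 CPM in GS cells named Y2 and 1921 CPM in isotonic cells, with reads in 12 of 20 and 16 of 17 cells, and the highest GS cell, Y212, had 117 reads of it among 4943. The median GS cell named Y2 had 3218.5 reads on genes, and the part of this low depth in the 2 means was not tested. ARO10 had no read in any of these 20 cells.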

How the results depend on the processing

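No paired analysis was possible because each group is 1 sample and cell numbers are names. The count of members at least 2-fold apart in AAS was 8, and 3 with mean log2(CPM + 1) or 5 with medians. The 3 included ARO7 on the higher side. With mean log2 values the median over the members was -0.24, beside 1.97 over all genes. In hypotonic cells the count was 2, and 1 with summed reads, 4 with mean log2 values, 5 with medians, 4 without the highest cell and 4 with detected genes as a covariate. In GS cells the median over the members was -4.73 with medians, beside 0 over all genes. With the cells named Y2 the count was 3 and the median -0.69, beside -0.46 over all genes. With each cell left out in turn, the count was 6 to 8 in AAS, 1 to 3 in hypotonic and 6 to 7 in GS cells, and the median -1.42 to -1.21, -0.58 to 0.26 and -3.63 to -2.74. Members at least 2-fold apart turned sign as follows. Under AAS these were ARO3 (0.029) and ARO9 (0.40) with mean log2 values, ARO1 (0.0052) against isotonic cells named A and ARO9 (4.33) against those named E or G. In hypotonic cells ARO10 turned to 0.017 with the covariate and 0.97 against cells named E or G. In GS cells these were ARO4 (0.15) with cells named Y2 and ARO8 (0.52) with all cells. ARO7 did not pass the filter in GS and is not among the members called. Its value was -3.58, 0.67 without the highest cell, and -4.10 to 1.19 with each cell left out in turn. Of the members short of 2-fold, ARO7 kept its sign in 12 and TRP4 in 14 of 16 alternatives in AAS. In hypotonic cells ARO1 kept it in 6, ARO9 in 7, TRP4 and TRP5 in 10 and ARO7 in 13 of 15, and in GS cells ARO1 in 7 and ARO3 in 10 of 12. The causes were not tested. Depth limits batch 2 most, where an isotonic cell had as few as 14245 reads on genes.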
